A study of Homo sapiens with 8 samples.

Results

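A set of 7 genes of hyaluronan turnover was followed in HCT116, a human cell line established from a colorectal carcinoma: CEMIP, CD44, HAS2, HAS3, HYAL1, HYAL2 and HYAL3. Of the 7 genes named, 5 were measured, each by 1 probe set of its own, among 18417 genes with such a probe set; HYAL1 and HYAL3 have no listed probe set in the array annotation used and were not analysed here. The set was chosen by gene symbol around CEMIP, which was itself selected on its measured difference between the lines in starved cells, so every member's difference in starved cells is given as a description with no test. The 4 groups were cells with a hairpin RNA against CDK8 (shCDK8) and cells with a control hairpin (shControl), each taken 30 min after 10% serum was given back and at the end of 40 h of starvation. CDK8 is the kinase of a dissociable module of the Mediator complex, which links transcription factors to RNA polymerase II. Each group had 2 arrays, 8 in all, and each line is labelled with a single hairpin name, so the lines may differ in more than the knockdown. The labels do not say whether duplicates were separate cultures, so p-values are set by a spread that could be technical.

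Hyaluronan is a long, unbranched sugar polymer of the extracellular matrix. Hyaluronan synthases (HAS genes) spin it out through the plasma membrane from UDP-sugars, hyaluronidases (HYAL genes) cleave it at the cell surface and in lysosomes, and CEMIP binds it and is needed for its breakdown by skin fibroblasts. CD44 is its main cell surface receptor. In the colon CD44 is a Wnt target and marks crypt base cells, and CEMIP is known as a gene that is raised in colorectal tumours.

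Values are log2 probe set levels, so a difference of 1 is a 2-fold change. A level also depends on the probes of its gene, so the marker levels here are a description. Array medians lay between 6.44 and 6.51 and r between duplicates, taken across genes, was 0.997 to 0.998. The targeted gene is read by probe set 7968199, listed for CDK8 together with ADRA1B. It stood at 7.05 in serum-treated shCDK8 cells against 9.20 in serum-treated shControl cells, and 7.04 in starved shCDK8 cells against 9.22 in starved shControl cells. The 12 listed epithelial markers, EPCAM, CDH1 and the keratins among them, averaged 9.25 to 9.36 per array, the 10 fibroblast and mesenchymal markers 5.33 to 5.44 (among which COL1A1 read 7.95 to 8.50) and the 9 measured blood and endothelial markers 4.96 to 5.13. VIL1, an intestinal brush border gene, read 5.50 to 5.75 in the group means, around the lower quartile of gene means (5.55). After serum, 3 of the 12 epithelial markers were higher in shCDK8 cells (KRT18, KRT8 and CDH1) and 2 were lower (CLDN4 and KRT19). No mesenchymal marker passed and LYZ alone did among the blood and endothelial ones, by 0.29. Of all genes, 7.70% were called higher and 6.54% lower. In starved cells 3 epithelial markers were higher and 2 lower, beside 7.13% and 6.28% of all genes. There ELF3 passed (0.44) and CDH1 did not, and no marker of the other lists passed. The part of these markers in the results below was not tested.

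CEMIP, CD44 and HAS3 were higher in shCDK8 cells after serum. For these 3 genes, 300 bases around a RefSeq start site (250 before, 50 after) are shown; they are RefSeq sequences of build GRCh38.p14, read 5′ to 3′ on the plus strand, which is the gene strand of all 3. The entries lie at chr15:80779120-80779419 for CEMIP, chr11:35138921-35139220 for CD44 and chr16:69107290-69107589 for HAS3. The CEMIP and CD44 entries sit at the outermost start of the gene in the RefSeq gene table, whereas the HAS3 entry sits at a start site inside the gene. Capitals mark matches, on either strand, to an SP1 motif (GGGCGG) or a TATA motif (TATAAA).
CEMIP: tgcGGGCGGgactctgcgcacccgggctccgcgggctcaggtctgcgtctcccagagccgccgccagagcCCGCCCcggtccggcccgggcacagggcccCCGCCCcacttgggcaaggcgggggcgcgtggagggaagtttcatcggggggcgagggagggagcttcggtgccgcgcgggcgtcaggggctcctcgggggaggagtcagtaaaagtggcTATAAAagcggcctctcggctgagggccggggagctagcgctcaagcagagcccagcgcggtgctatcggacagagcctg
CD44: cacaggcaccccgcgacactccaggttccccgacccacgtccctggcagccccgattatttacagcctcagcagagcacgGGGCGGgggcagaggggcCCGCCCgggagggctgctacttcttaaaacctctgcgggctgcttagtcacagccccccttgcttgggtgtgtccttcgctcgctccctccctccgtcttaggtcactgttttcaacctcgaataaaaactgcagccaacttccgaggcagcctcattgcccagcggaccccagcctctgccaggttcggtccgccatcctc
HAS3: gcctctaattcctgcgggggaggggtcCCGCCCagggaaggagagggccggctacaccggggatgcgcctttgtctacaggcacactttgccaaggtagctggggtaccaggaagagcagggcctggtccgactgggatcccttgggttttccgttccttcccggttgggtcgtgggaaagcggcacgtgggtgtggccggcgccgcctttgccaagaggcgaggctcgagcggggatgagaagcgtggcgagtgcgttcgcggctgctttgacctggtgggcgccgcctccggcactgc

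The CEMIP sequence held 3 SP1 matches and a TATA match whose first base lies at -30 from the start site. The CD44 sequence held 2 SP1 matches and that of HAS3 held 1, and neither held the TATA letters. None of the 3 held the AP-1 motif TGANTCA or the TEAD motif GGAATG, and no matches overlapped. Of 35116 RefSeq promoters of this length, 45% held the SP1 motif, 11.5% the TATA motif, 7.71% the AP-1 motif and 14% the TEAD motif. Their G and C content was 73% for CEMIP, 63.3% for CD44 and 67% for HAS3, against a median of 58.7% over all promoters. The matches describe letters in this window and are not shown to be used in these cells.

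The first comparison asked how the lines differed after serum, on arrays other than those that drew attention to CEMIP. These arrays come from the same lines, so a line difference picked in starved cells can recur here. For CEMIP the test is therefore not independent of its selection. The other members were also chosen with earlier results of these data known, so their tests are not independent support either. CEMIP, CD44 and HAS3 rose in the shCDK8 line relative to shControl, and HAS2 and HYAL2 did not pass the test. Thus 3 of 5 measured genes were called higher and 0 lower, beside 7.70% of all 18417 genes called higher and 6.54% called lower. This count and the median of the 5 include CEMIP, the gene chosen on the line difference in starved cells. They describe the set and are not evidence about it. The median difference of the 5 was 0.70, against -0.01 over all genes. In bulk RNA, a change in the number of cells that express a gene and a change in RNA per cell cannot be told apart.

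CEMIP, the hyaluronan-binding protein, had the largest difference of the 5. It read 8.39 and 8.48 on the serum-treated shCDK8 arrays, against 5.85 and 5.55 on the serum-treated shControl arrays. Every shCDK8 array stood far above every shControl array, and the control duplicates lay further apart than those of any other group. The shCDK8 line thus had a 6.65-fold higher level (a log2 difference of 2.73 ± 0.10 SE, limma adjusted p = 1.75e-07, n = 2 arrays a group), with a 95% interval of 2.52 to 2.95. The shControl mean of 5.70 lies close to the lower quartile of gene means (5.55). In the same cells the 9 measured blood and endothelial markers averaged 4.96 to 5.00 per array. Their group means ran from 3.6 for PTPRC to 6.0 for CD14, so CEMIP lies within their range but above their average. CEMIP is thus not shown to be above background in shControl cells, and its folds are ratios of probe set levels. Fitting the 4 serum arrays alone, which takes no spread from the starved arrays, gave an adjusted p of 3.66e-05 in limma, and leaving out any 1 of the 8 arrays gave differences of 2.58 to 2.88.

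In starved cells CEMIP read 8.35 and 8.41 in shCDK8 cells, against 5.89 and 5.96 in shControl cells. This difference, 5.47-fold (log2 2.45 ± 0.10 SE), is the one that chose the gene and is not tested. Ordered by mean, the CEMIP level was 8.43 ± 0.07 (SD, n = 2) in serum-treated shCDK8 cells, 8.38 ± 0.04 in starved shCDK8 cells, 5.93 ± 0.05 in starved shControl cells and 5.70 ± 0.21 in serum-treated shControl cells. The 2 shCDK8 groups overlapped, and the one clear step in the order lay between the lines.

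CD44, the receptor, was also higher in shCDK8 cells after serum. Its arrays read 11.82 and 11.77 in shCDK8 cells, against 10.75 and 10.73 in shControl cells. The gap of 1.05 ± 0.07 SE (2.07-fold, limma adjusted p = 1.08e-05) was many times the spread between duplicates. In starved cells CD44 read 11.75 and 11.78 in shCDK8 cells, against 10.80 and 10.66 in shControl cells, a difference of 1.03 ± 0.07. The probe set reads the gene as a whole, so the values do not separate the splice forms of CD44.

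Of the synthases, HAS3 rose and HAS2 did not pass. HAS3, a synthase found in epithelia such as skin, read 8.23 and 8.26 in serum-treated shCDK8 cells, against 7.57 and 7.53 in serum-treated shControl cells. It was 1.62-fold higher (log2 0.70 ± 0.07 SE, limma adjusted p = 2.05e-04), and the groups were apart by more than the range of either. In starved cells it read 8.35 and 8.26 in shCDK8 cells, against 7.58 and 7.72 in shControl cells, which is a difference of 0.66 ± 0.07.

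HAS2, the synthase that mouse embryos need for heart development, read 5.01 and 4.88 in serum-treated shCDK8 cells, against 4.80 and 4.78 in serum-treated shControl cells. Its difference of 0.16 ± 0.07 SE (1.11-fold) did not pass (limma adjusted p = 0.195, 95% interval -0.001 to 0.31). In starved cells it read 5.06 and 5.08 in shCDK8 cells, against 4.88 and 4.95 in shControl cells, again 0.16 apart. Its mean over all arrays, 4.93, lies below the lower quartile of gene means (5.55), so a filter at that level kept 4 of the 5 genes and removed HAS2.

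HYAL2, a hyaluronidase anchored at the cell surface, read 7.79 and 7.70 in serum-treated shCDK8 cells, against 7.51 and 7.61 in serum-treated shControl cells. The difference of 0.19 ± 0.07 SE (1.14-fold) did not pass (limma adjusted p = 0.129). Its 95% interval, 0.03 to 0.35, is not adjusted for the number of genes tested. In starved cells it read 7.96 and 7.85 in shCDK8 cells, against 7.66 and 7.69 in shControl cells, a difference of 0.23 ± 0.07. HYAL1, a lysosomal hyaluronidase, and HYAL3 are its neighbours on chromosome 3 and have no value here.

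**Figure D1:**
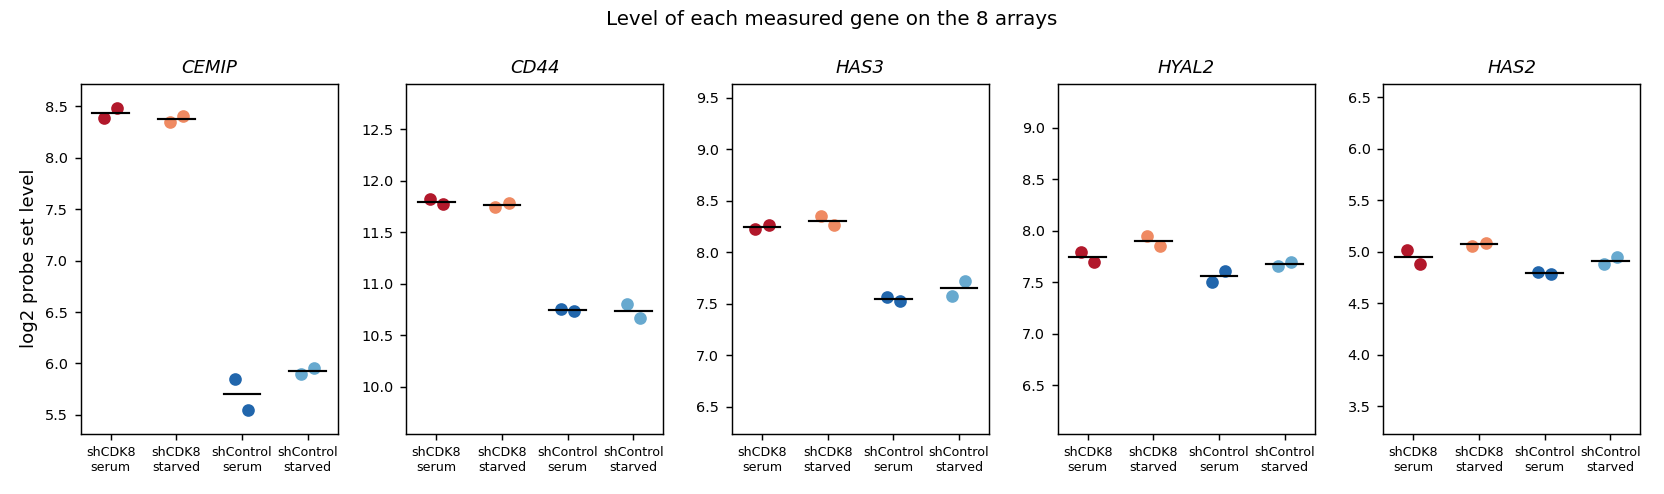
Log2 probe set level (vertical axis, the same span of 3.4 log2 units in each panel) of CEMIP, CD44, HAS3, HYAL2 and HAS2 on each of the 8 arrays; points are arrays, with replicate 1 left of replicate 2, and bars are group means. The step between the lines is 2.73 for CEMIP, 1.05 for CD44 and 0.70 for HAS3 after serum, and the serum-treated and starved arrays of a line lie close together.

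Over both times, all 4 shCDK8 arrays lay above all 4 shControl arrays for 4 of the 5 genes, beside 13.0% of all genes; 4 of these 8 arrays are the starved ones, so this count supports nothing by itself. The exception was HAS2, whose second serum-treated shCDK8 array (4.88) lay below the second starved shControl array (4.95). For HYAL2 the margin was narrow, 7.70 for the lowest shCDK8 array against 7.69 for the highest shControl array.

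**Figure D2:**
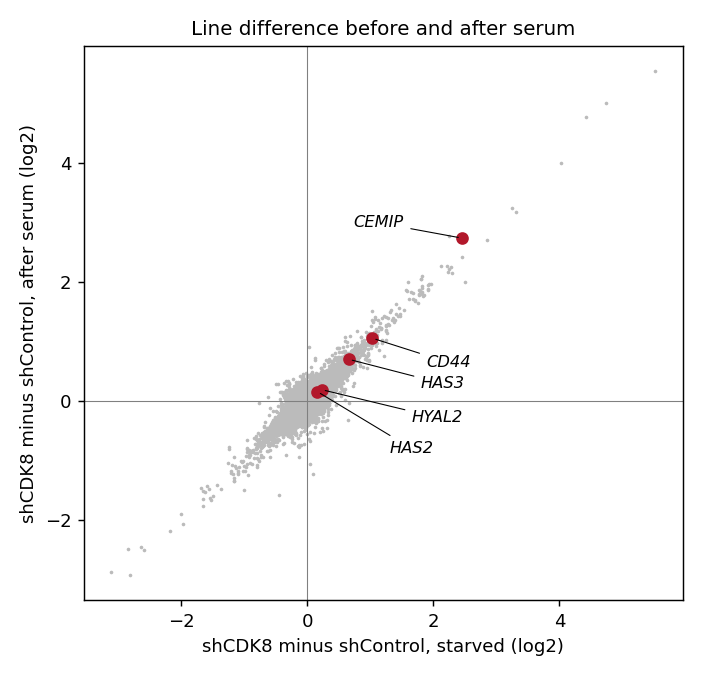
Difference between the lines (shCDK8 minus shControl, log2) in starved cells (horizontal axis) and after serum (vertical axis), for all 18417 genes in grey and the 5 measured genes in red. CEMIP lies at 2.45 and 2.73 and CD44 at 1.03 and 1.05, outside the bulk of the genes, while HAS2 (0.16 on both axes) and HYAL2 (0.23 and 0.19) lie within it.

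The second comparison asked whether 30 min of serum moved these genes. In neither line did any of the 5 pass limma's test after Benjamini-Hochberg adjustment, where 0.462% of all genes were called in shControl and 0.255% in shCDK8 cells. Before adjustment, limma gave a p below 0.05 for 1 of 5 in shControl cells, beside 1662 of all 18417 genes. In shCDK8 cells it did so for 0 of 5, beside 1766 of all genes. The 1 gene was CEMIP, with 5.85 and 5.55 in serum-treated shControl cells against 5.89 and 5.96 in starved shControl cells. Its change of -0.23 ± 0.10 SE (limma adjusted p = 0.539) was -0.38 without serum array 1 of shControl and -0.08 without its serum array 2. In shCDK8 cells the change of CEMIP was 0.06 ± 0.10 (limma adjusted p = 0.871).

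CD44 changed least, by 0.01 ± 0.07 SE in shControl cells and 0.03 ± 0.07 in shCDK8 cells, with 95% intervals of -0.15 to 0.17 and -0.13 to 0.19. The synthases and HYAL2 had small negative values in both lines, none past the threshold. HAS3 moved by -0.06 in shCDK8 and -0.10 in shControl cells, HAS2 by -0.12 in each line, and HYAL2 by -0.16 in shCDK8 and -0.12 in shControl cells, each with an SE of 0.07. Both serum-treated arrays lay below both starved arrays for HAS2 and HYAL2 in each line, beside 7.48% of all genes. In shCDK8 cells these were the 2 of 5, beside 22.2% of all genes, and in shControl cells CEMIP and HAS3 joined them (4 of 5, beside 23.5%). Averaged over the lines, HYAL2 stood at -0.14 ± 0.05 SE (limma adjusted p = 0.281) and HAS2 at -0.12 ± 0.05 (limma adjusted p = 0.307). These 2 of 5 had an unadjusted limma p below 0.05 in the average, beside 2678 of all 18417 genes. None of the 5 passed after adjustment, beside 0.760% of all genes. The unadjusted 95% interval of the serum change of CEMIP was -0.44 to -0.01 in shControl cells and -0.16 to 0.27 in shCDK8 cells.

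The third comparison set the serum response of shCDK8 cells against that of shControl cells. None of the 5 passed limma's test of the difference, at an adjusted or an unadjusted p of 0.05, and 0% of all genes did after adjustment (0 of 18417, with 703 below 0.05 in limma before adjustment). CEMIP had the widest gap, 0.28 ± 0.14 SE (95% interval -0.02 to 0.59, limma adjusted p = 1). The differences were 0.02 for CD44, 0.00 for HAS2, 0.04 for HAS3 and -0.04 for HYAL2, each with an SE of 0.10.

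**Figure D3:**
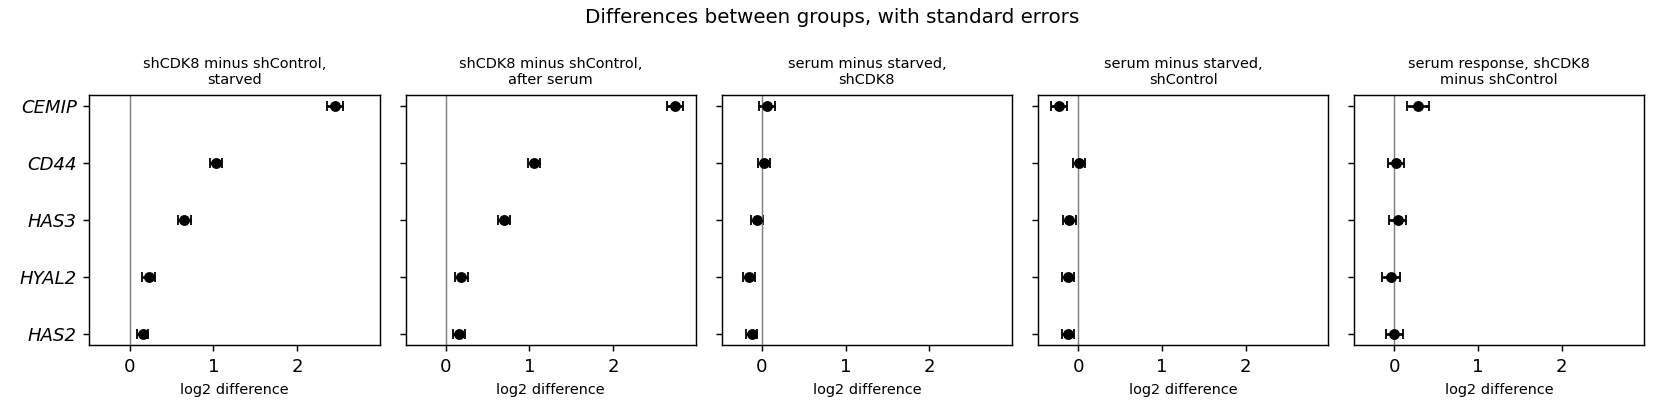
Log2 differences (horizontal axis) of the 5 measured genes for the lines in starved cells, the lines after serum, serum in shCDK8 cells, serum in shControl cells and the difference of the serum responses; bars are standard errors of the model. The line differences run up to 2.73, whereas the serum changes lie between -0.23 and 0.06.

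Genes with the closest profiles were sought by the root mean square difference over the 8 arrays, after each gene's own mean was subtracted. For CEMIP they were EHF (0.17), JAG1 (0.20), EPB41L4A (0.21), INPP4B (0.21) and PHLDB2 (0.24), against a median of 1.31 over all genes. EHF, an ETS transcription factor of epithelial cells, read 6.96 in shCDK8 cells against 4.19 in shControl cells after serum, and JAG1, a Notch ligand, read 10.88 against 8.47. For CD44 the closest were ZDHHC2, JCAD, FERMT1, SERPINB5 and TSPAN13, at 0.04 to 0.06 against a median of 0.54. FERMT1 (kindlin-1), an integrin-activating adhesion protein, read 9.25 in shCDK8 cells against 8.20 in shControl cells after serum. For HAS3 they were FHDC1, SLC39A8, FHOD3, IAH1 and GLYR1, at 0.05 to 0.06 against 0.36. All these profiles come from the same 8 arrays and follow the step between the lines. The closest profiles of HAS2 and HYAL2 are not given, as their group means span less than 0.5 (0.28 and 0.35).

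The rest of the pathway was read from a list of 37 other hyaluronan genes (precursor supply, breakdown, receptors and binding proteins), of which 34 were measured and the others were not analysed here. After serum 2 were higher in shCDK8 cells, 3 were lower and 29 did not pass, beside 7.70% and 6.54% of all genes, and the list's median was -0.06 against -0.01. CEMIP2, a transmembrane relative of CEMIP, read 8.12 and 8.21 in shCDK8 cells against 7.60 and 7.75 in shControl cells after serum (0.50 ± 0.08 SE, limma adjusted p = 0.00187). HMMR, a hyaluronan receptor that also acts at the mitotic spindle of dividing cells, fell: it read 6.83 and 6.99 in shCDK8 cells against 8.37 and 8.47 in shControl cells (-1.51 ± 0.11, limma adjusted p = 1.92e-05). These 2 passed under each of the 16 alternatives.

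HABP4, an intracellular protein that binds hyaluronan and RNA, was higher by 0.29, and UGDH, which makes UDP-glucuronic acid for hyaluronan synthesis, and GUSB, a lysosomal enzyme that removes glucuronic acid, were lower, at -0.30 and -0.25. The 3 calls were less firm, since UGDH lost its call without any 1 serum array (limma adjusted p up to 0.104), HABP4 without 3 of those 4 (up to 0.0853) and GUSB under 9 of the 16 alternatives (up to 0.252). The list had 1 gene higher and 1 lower without serum array 1 or 2 of shControl or serum array 2 of shCDK8, 2 and 1 without serum array 1 of shCDK8, and 3 and 6 where the variance prior followed intensity. Calls in starved cells, the contrast that drew attention to CEMIP, are a description only. There 3 list genes were higher and 4 lower, beside 7.13% and 6.28% of all genes. They were CEMIP2 (0.48), HABP4 (0.44) and HEXA (0.35) against HMMR (-1.66), UGDH (-0.32), VCAN (-0.27) and C1QBP (-0.24). VCAN lost its call under 11 of the 16 alternatives (limma adjusted p up to 0.241) and C1QBP under 8 (up to 0.138), HEXA and UGDH under 2 each (up to 0.0777 and 0.0897), while CEMIP2, HABP4 and HMMR passed under each. The counts of 3 and 4 became 3 and 1 without starved array 1 of shCDK8, and 2 and 2 without its starved array 2 or starved array 2 of shControl. They became 3 and 2 without starved array 1 or either serum array of shControl, in a fit of the starved arrays alone or after cyclic loess, and 3 and 6 where the variance prior followed intensity. No list gene passed in either serum comparison.

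A list of 22 CD44 partners, splicing factors and sheddases had 19 measured genes. After serum 8 were higher in shCDK8 cells, 2 lower and 9 did not pass, beside the same 7.70% and 6.54% of all genes, with a median of 0.045 against -0.01. MMP14, a membrane metalloprotease that can cut CD44, read 8.27 and 8.31 in shCDK8 cells against 7.17 and 7.20 in shControl cells (2.15-fold, log2 1.10 ± 0.09 SE, limma adjusted p = 4.21e-05). MSN (moesin), which ties the CD44 tail to actin, was higher by 0.49 ± 0.07 and TIAM1, a RAC1 exchange factor that binds CD44, by 0.48 ± 0.07, and these 3 passed under each of the 16 alternatives. ANK3 (0.46), a membrane skeleton adaptor, SLC7A11 (0.42), the cystine transporter that a splice form of CD44 is known to stabilise, and ERBB2 (0.25) followed. ANK3 lost its call without serum array 2 of shControl (limma adjusted p = 0.0508), SLC7A11 without 3 of the 4 serum arrays (up to 0.0957) and ERBB2 under 13 of the 16 alternatives (up to 0.261).

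The other higher genes were ADAM10 (0.24) and ADAM17 (0.24), membrane proteases that can shed CD44. The 2 lower genes were MET (-0.24), a receptor kinase for which CD44 can act as a coreceptor, and TRA2B (-0.22), a splicing factor. These 4 calls were also less firm: ADAM10 and ADAM17 lost theirs under 8 of the 16 alternatives each (limma adjusted p up to 0.199 and 0.189), TRA2B under 11 (up to 0.176) and MET under 5 (up to 0.164). ESRP2, which controls epithelial splicing of CD44, stood at -0.06 after serum and KHDRBS1 at -0.035, neither past the threshold; without serum array 1 of shCDK8 or serum array 2 of shControl the ESRP2 value turned positive, at 0.03 each. The counts of 8 and 2 became 4 and 0 without serum array 1 of either line, 3 and 0 without serum array 2 of shControl, 5 and 0 without serum array 2 of shCDK8 or in a fit of the serum arrays alone, 5 and 1 without either starved array of shCDK8, and 5 and 2 after median centring. Calls in starved cells are again a description only. There 4 list genes were higher (MMP14 at 1.00, TIAM1, MSN and ANK3) and MET was lower, beside 7.13% and 6.28% of all genes. MET lost this call under 11 of the 16 alternatives (limma adjusted p up to 0.166) and ANK3 under 2 (up to 0.0882). The counts became 3 and 0 without starved array 1 of shControl or starved array 2 of shCDK8, 4 and 0 with the replicate block or the starved arrays alone, 6 and 0 after cyclic loess, and 7 and 2 where the variance prior followed intensity.

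**Figure D4:**
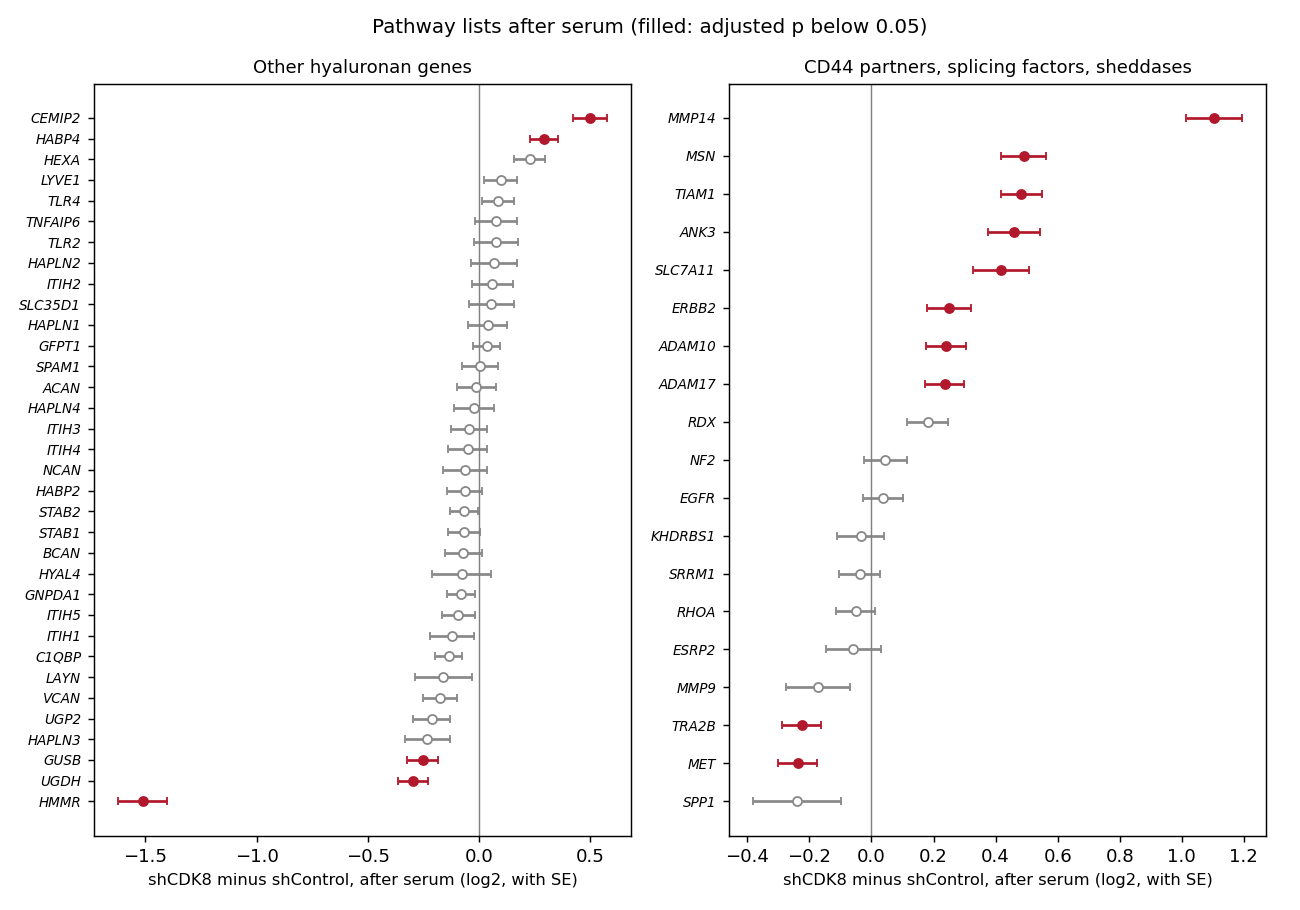
Log2 difference between the lines after serum (shCDK8 minus shControl, horizontal axis) for 34 other hyaluronan genes (left) and 19 CD44 partners, splicing factors and sheddases (right); bars are standard errors and filled points passed an adjusted p of 0.05. HMMR stands far to the low side at -1.51 and MMP14 to the high side at 1.10, and 29 of the 34 hyaluronan genes did not pass.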

How the data were processed

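RNA of 8 samples had been hybridised to Affymetrix human gene arrays, each sample to its own array, and the labels gave the groups. The deposited values are log2 probe set levels, which the authors made with RMA (background correction, quantile normalization and probe summary), per the submitters' processing notes; whether this was done jointly for the 8 arrays, with which version and which genome build is not given in the sources used here. Of 33297 probe sets, 19460 were paired with 1 gene. The probe set with the highest mean was kept for each of 18417 genes, with no further normalization and no filter. Names come from a RefSeq gene table (GRCh38.p14), which matched 19429 probe sets.

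Group means were fitted with limma 3.58.1 in R 4.3.3 over all genes and arrays (4 residual and 5.49 prior degrees of freedom). Tests were two-sided, with Benjamini-Hochberg adjustment over all genes within a contrast and a threshold of 0.05. The procedure was tested on simulated data. Figures were drawn with matplotlib 3.10.9. Precision is limited by the number of arrays.

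The members and both pathway lists were chosen with earlier results of these data known. Up to 6 genes of a list were named for each line comparison, those past the threshold first by size, and the 5 closest profiles for each member whose group means span at least 0.5. C1QBP, ADAM10, ADAM17, ESRP2, KHDRBS1, TRA2B and, after serum, MET were named after their values were seen. Promoters came from a RefSeq table of 35116 entries, in which HAS2 had none.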

Additional observations from a re-analysis of the deposited data

How the results depend on the processing

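Each comparison was repeated with a variance prior that follows intensity, with only the arrays compared, with a replicate block, for genes with a mean level above the 25th percentile, after cyclic loess or median centring, with averaged probe sets, and 8 times with 1 array removed (16 alternatives with the one added below). Under each alternative, 3 of the measured genes were called after serum and 0 with serum in either line, and none was in the difference of responses under the 15 alternatives that hold all 4 groups. CEMIP differed between the lines in starved cells by 2.42 to 2.48. Where 1 array is removed, the lone array of its group is taken to vary as the other groups do. This turned the sign of changes that did not pass in any fit: CD44 in shControl cells ranged from -0.063 to 0.079 and in the average serum response from -0.017 to 0.054, and the differences of responses ranged from -0.050 to 0.092 for CD44, -0.067 to 0.067 for HAS2, -0.029 to 0.113 for HAS3 and -0.090 to 0.014 for HYAL2. Same-numbered arrays deviated together with r between -0.19 and 0.13 over the 6 pairs of groups, so the numbers were not taken to pair the samples; with the replicate block, 3 members were called after serum and 0 with serum in either line. Crossing the numbers of the starved shCDK8 arrays, chosen after seeing the data, again gave 3 and 0. Of the results of the pathway genes named from the lists under an alternative, 101 lost the threshold and 2 turned sign, both of ESRP2, which did not pass in any fit (0.028 without serum array 1 of shCDK8 and 0.034 without serum array 2 of shControl; -0.152 to 0.034 with 1 array removed).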
